A study of Mus musculus with 96 samples.

Results

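The dopamine receptor and striatal signalling genes described here are 10 named mouse genes, Drd1, Drd2, Drd3, Th, Adora2a, Adcy5, Ppp1r1b, Gnal, Rgs9 and Pde10a, out of 19918 genes in the count tables. They were chosen by name and all 10 were measured. Bulk RNA sequencing of polyadenylated RNA was carried out on tissue punches of the nucleus accumbens (NAc) and the prefrontal cortex (PFC) of 48 mice, giving 1 library per region and mouse. The mice belonged to the FCG model, a cross in which the gonads do not depend on the sex chromosomes. XXSry and XY-Sry mice carried a Sry transgene and had testes, while XX mice and XY- mice, whose Y chromosome lacks Sry, had ovaries. The stressed groups held 6 mice each of XX, XXSry, XY- and XY-Sry, and the unstressed control groups held 5 XX, 6 XXSry, 7 XY- and 6 XY-Sry mice. Subchronic variable stress (SCVS) meant 3 restraint sessions of 1 hour, given every other day within 6 days. Strain and age were not given in the sources used here, and the mice came from 3 cohorts, with no cohort 2 mouse among stressed XXSry and XY- mice and no cohort 3 mouse among control XX and XXSry mice.

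Dopamine released by midbrain axons reaches medium spiny neurons, the projection neurons of the striatum, of which the NAc is the ventral part. One class of these neurons carries the receptor of Drd1, which couples through the olfactory-type G protein alpha subunit of Gnal to adenylyl cyclase 5, the product of Adcy5, and raises cAMP. The other class carries the receptor of Drd2, which lowers cAMP, together with the adenosine receptor of Adora2a, which raises it. Cyclic AMP activates protein kinase A, whose substrate Ppp1r1b becomes an inhibitor of protein phosphatase 1. The phosphodiesterase of Pde10a breaks cAMP down, and the product of Rgs9 speeds the switching off of G proteins. Th encodes tyrosine hydroxylase, the rate-limiting enzyme of dopamine synthesis, which in the forebrain is mostly a protein of incoming axons whose mRNA lies in distant cell bodies.

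Promoter sequences are given for Drd1 and Drd2, the receptors of the 2 neuron classes, and for Th. Th was far higher in 3 PFC libraries than in the other PFC libraries. RefSeq promoters (GRCm38.p6) matched 7 of the 10 genes, and the 250 bases before the first listed start are shown 5' to 3' on the gene's strand, at chr13:54055659-54055908 for Drd1, chr9:49340153-49340402 for Drd2 and chr7:142899996-142900245 for Th. Capitals mark a match on either strand to the cAMP response element TGACGTCA, the TATA box TATAAA or the GC box GGGCGG.
Drd1: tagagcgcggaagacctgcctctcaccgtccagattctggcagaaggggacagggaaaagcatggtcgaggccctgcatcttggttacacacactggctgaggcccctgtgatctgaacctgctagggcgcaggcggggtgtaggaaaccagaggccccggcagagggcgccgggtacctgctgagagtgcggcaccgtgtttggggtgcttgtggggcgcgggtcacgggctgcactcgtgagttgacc
Drd2: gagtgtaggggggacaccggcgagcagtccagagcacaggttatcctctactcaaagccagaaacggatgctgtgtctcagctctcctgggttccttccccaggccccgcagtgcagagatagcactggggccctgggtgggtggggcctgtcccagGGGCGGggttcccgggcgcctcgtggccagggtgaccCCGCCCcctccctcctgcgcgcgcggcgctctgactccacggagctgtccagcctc
Th: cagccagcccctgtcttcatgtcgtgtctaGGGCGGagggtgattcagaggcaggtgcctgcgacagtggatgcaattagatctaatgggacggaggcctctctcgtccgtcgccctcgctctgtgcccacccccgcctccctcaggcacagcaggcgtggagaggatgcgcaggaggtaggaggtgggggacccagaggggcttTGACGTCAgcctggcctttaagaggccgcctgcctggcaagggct
Th holds 1 cAMP response element, which 1.55% of 32841 mouse promoters of this length hold, and 1 GC box. The 5-letter core TGACG, present in 17.8% of promoters, matched only inside that element among the 3 sequences. Drd2 holds 2 GC boxes, a motif present in 32.7% of promoters, and none of the searched motifs was found in these letters for Drd1. The TATA box, present in 12.4% of promoters, was in none of the 3. These matches describe letters in a window and not sites in use.

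In the GENCODE annotation of GRCm38 the receptor genes are Drd1 on the minus strand at chr13:54051183-54055705, Drd2 on the plus strand at chr9:49340627-49408177, Drd3 on the plus strand at chr16:43754026-43822932 and Adora2a on the plus strand at chr10:75316877-75334784. Th lies on the minus strand at chr7:142892752-142931128. The signalling genes are Gnal at chr18:67088216-67226792, Adcy5 at chr16:35154877-35305738, Ppp1r1b at chr11:98348404-98357796 and Pde10a at chr17:8525372-8986648, all on the plus strand, and Rgs9 at chr11:109225355-109298129 on the minus strand. All 10 are protein-coding. Exons of Gnal share 852 bases with Mppe1 and exons of Ppp1r1b share 460 bases with 1700003D09Rik, both on the opposite strand, and the use of strand in counting was not stated, so reads of these pairs may not be told apart.

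The NAc libraries held 45.9 to 120.8 M counts (mean 75.4, SD 12.6) and the PFC libraries 67.6 to 104.4 M counts (mean 83.0, SD 8.48), with 48 libraries in each region. Levels are given in CPM, that is, each library's counts divided by its effective size, on 1 scale for both regions. The 11 striatal neuron markers summed to between 1466 and 3007 CPM in the NAc, against between 344 and 424 CPM in the PFC, and all 11 were higher in the NAc in the test. The 7 markers of cortical excitatory neurons summed to between 54.5 and 933 CPM in the NAc, against between 1965 and 2387 CPM in the PFC. Slc17a7, a glutamate transporter of cortical neurons, spanned 21.5 to 612 CPM among NAc libraries. In the PFC 4 libraries stood apart in a member gene, all of cohort 1, and results that rest on them are given with and without them. They were stressed XY- mouse 15, control XXSry mouse 51 and control XY-Sry mouse 38 for Th, and stressed XY-Sry mouse 30 with control XY-Sry mouse 38 for Drd2.

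All 10 genes were higher in the NAc than in the PFC. In an edgeR quasi-likelihood fit over both regions with the animal as a block, 10 of 10 passed an adjusted p of 0.05 in that direction, where 44% of 19918 genes did. The median log2 fold change was 4.40 over the 10 genes and 0.02 over all genes. Adjusted p-values here measure the spread between mice. In bulk tissue fewer cells of a type and less RNA per cell cannot be told apart. Because 85.9% of all genes passed in either direction, the size of the differences carries more than the count.

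Drd3, a receptor found mainly in the ventral striatum, had 1.98 to 8.51 CPM in the NAc (median 5.72), against 0 in 39 of 48 PFC libraries. The 9 other PFC libraries held 21 counts together, at most 7 in 1 library, which gave 0.00527 CPM over all PFC libraries (95% exact Poisson interval 0.00326 to 0.00806, counting error only). Drd3 did not pass the filter on low counts in the PFC, so no comparison within that region was tested for it. The fitted log2 fold change between regions was 10.57 ± 0.16 SE (edgeR adjusted p = 6.4e-44), a value that depends on the prior count because most PFC libraries were at 0.

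Drd2 had 43.8 to 116.6 CPM in the NAc (median 77.7), against 0.248 to 2.65 CPM in the PFC (median 0.650). The fold was 115.9 (95% interval 102.2 to 131.5, edgeR adjusted p = 3.1e-42), and the lowest NAc library lay far above the highest PFC library. Adora2a, the partner of Drd2 in the same neurons, had 68.1 to 182.6 CPM in the NAc (median 118.1), against 1.11 to 3.89 CPM in the PFC (median 1.53), a fold of 73.6 (65.5 to 82.7). Drd1 had 126.1 to 333.9 CPM in the NAc (median 244), against 7.03 to 12.99 CPM in the PFC (median 9.19), a fold of 24.8 (23.2 to 26.6). None of these 3 receptors overlapped between regions, and the Drd1 fold lay below those of Drd2 and Adora2a with intervals that did not meet.

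**Figure D1:**
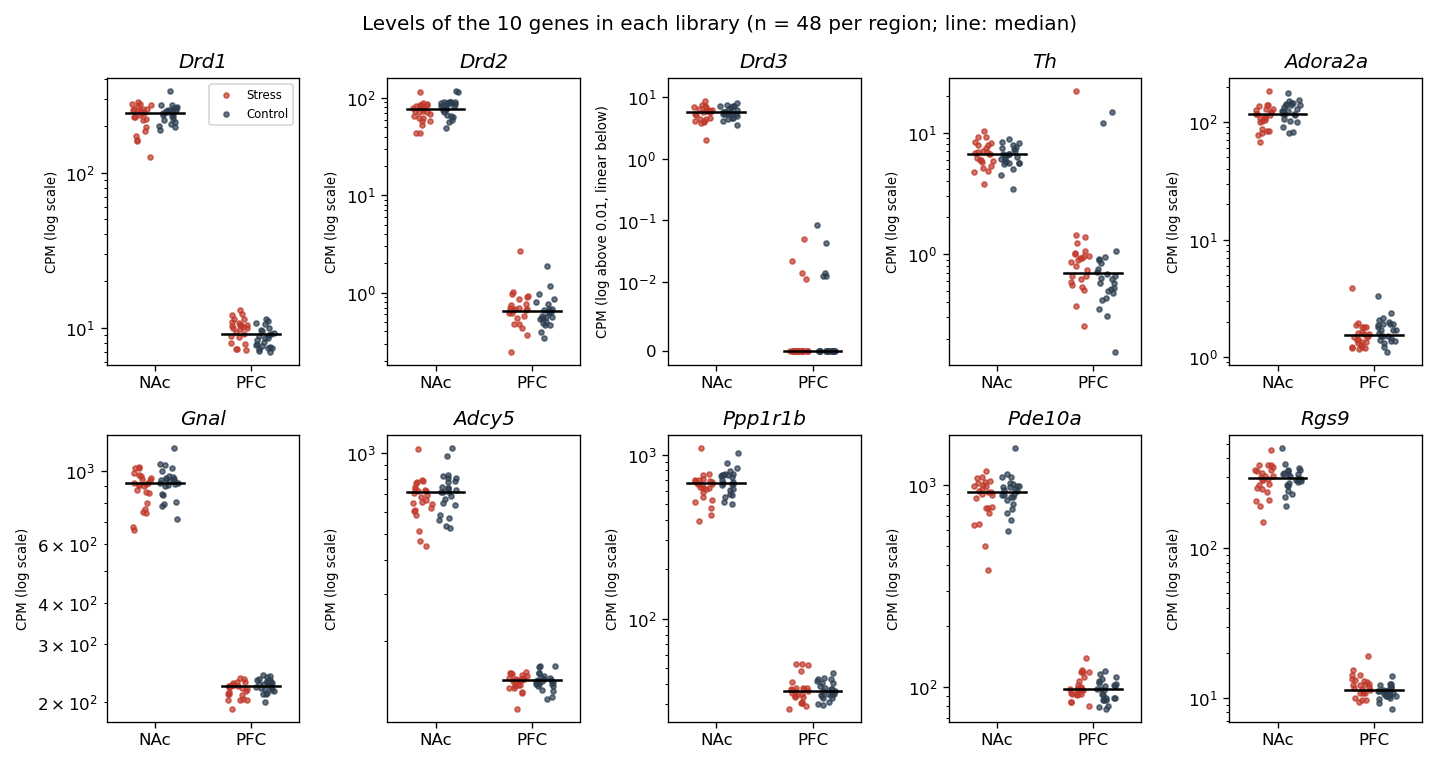
Level of each gene in every library, in CPM on a log axis (for Drd3 linear below 0.01), NAc left of PFC and stress left of control, with the median of 48 libraries as a line. The regions are apart for 9 genes, while 3 PFC libraries reach 11.9 to 21.9 CPM of Th, above the NAc median of 6.63.

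Among the signalling genes Rgs9 had a fold close to that of Drd1, and the other folds were lower. Rgs9 had 149.9 to 466.6 CPM in the NAc (median 294.6), against 8.50 to 18.999 CPM in the PFC (median 11.2), a fold of 25.1 (23.2 to 27.3). Ppp1r1b had 391.6 to 1089 CPM in the NAc (median 666), against 28.3 to 52.6 CPM in the PFC (median 36.3), a fold of 18.05 (16.7 to 19.5). For both genes the lowest NAc library exceeded the highest PFC library by several fold. The other 3 signalling genes had smaller folds. Pde10a had 378 to 1517 CPM in the NAc (median 927), against 78.0 to 138.8 CPM in the PFC (median 97.8), a fold of 9.11 (8.47 to 9.81). Adcy5 had 449 to 1037 CPM in the NAc (median 713), against 112.4 to 160.9 CPM in the PFC (median 143), a fold of 4.92 (4.64 to 5.22). Gnal had 662 to 1169 CPM in the NAc (median 921), against 191.5 to 241.6 CPM in the PFC (median 223.8), a fold of 4.06 (3.92 to 4.204). Each of these 5 genes was higher in the NAc library of 48 of 48 animals, as were the 4 receptors.

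Th was the exception. It had 3.43 to 10.4 CPM in the NAc (median 6.63), against 0.157 to 21.9 CPM in the PFC (median 0.699), and was higher in the NAc in 45 of 48 animals. The log2 fold change was 3.08 ± 0.20 SE (adjusted p = 2.6e-17), and 3.24 without the 3 animals that went the other way (adjusted p = 1.6e-28). These 3 animals were those with 21.9, 14.7 and 11.9 CPM of Th in the PFC, where the other 45 PFC libraries held at most 1.43 CPM. Those same libraries held the highest values of Slc6a3, the dopamine transporter, with 1.78, 0.804 and 0.953 CPM against at most 0.189 CPM elsewhere. They also held the highest values of Slc18a2, the vesicular monoamine transporter, with 1.62, 1.01 and 0.772 CPM against at most 0.453 CPM elsewhere. Only these 2 of the 5 measured markers of dopamine neurons were highest in all 3 libraries. Ddc, the decarboxylase that makes dopamine, had 3.06, 3.37 and 2.10 CPM there, against 1.97 to 4.67 CPM elsewhere. Nr4a2, a transcription factor of dopamine neurons, had 6.53, 6.47 and 6.04 CPM, against 3.81 to 9.15 CPM elsewhere. Aldh1a1, an aldehyde dehydrogenase of some dopamine neurons, was highest in stressed XY- mouse 15 (17.3 CPM), while the other 2 libraries lay within the range of the rest. Dbh, the enzyme that makes noradrenaline, also stayed within the range of the other libraries (0.217 to 0.322 CPM, against 0.138 to 0.647 CPM). No striatal marker was highest in all 3 libraries. Sp9 had 5.66 and 5.01 CPM in mice 15 and 51 and 2.80 CPM in mouse 38, against at most 3.68 CPM elsewhere. Meis2 had 233 and 228 CPM in mice 38 and 51 and 216 CPM in mouse 15, against at most 223 CPM elsewhere. Whether these reads came from dopamine neurons, their axons or other cells taken with the punch was not tested.

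Per kilobase of exon, the order of levels in the NAc was Ppp1r1b (mean 228.6 CPM per kb ± 44.3 SD), Adcy5 (97.8 ± 17.1), Gnal (81.1 ± 9.06), Pde10a (70.5 ± 14.7), Drd1 (65.0 ± 10.3), Rgs9 (46.2 ± 9.39), Adora2a (38.7 ± 8.22), Drd2 (30.2 ± 6.46), Drd3 (3.27 ± 0.741) and Th (2.80 ± 0.611; n = 48 each). Most neighbours kept their order in nearly every library. Pde10a was above Drd1 in 37 of 48 libraries and Drd3 above Th in 37 of 48, so these 2 pairs differed by less than their spread. In the PFC the order was Gnal (19.9 ± 1.00), Adcy5 (19.7 ± 1.36), Ppp1r1b (12.7 ± 2.01), Pde10a (7.67 ± 0.998), Drd1 (2.56 ± 0.428), Rgs9 (1.81 ± 0.281), Th (0.714 ± 1.67), Adora2a (0.542 ± 0.163), Drd2 (0.280 ± 0.151) and Drd3 (0.00321 ± 0.00906). Gnal was above Adcy5 in only 24 of 48 PFC libraries. Th stood above Adora2a by its mean, but in only 7 of 48 libraries.

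In the edgeR fit Drd2 was the only member called for a factor of the design within a region, and it was lower in the PFC of XX than of XY mice. Its mean PFC level was 0.576 CPM in the 23 XX mice (SD 0.176) and 0.840 CPM in the 25 XY mice (SD 0.475). In stressed mice the lowest, median and highest PFC values were 0.248, 0.514 and 0.696 CPM in XX and 0.366, 0.663 and 0.766 CPM in XXSry, against 0.569, 0.883 and 1.02 CPM in XY- and 0.613, 0.710 and 2.65 CPM in XY-Sry. Every stressed XX and XXSry group had a lower median than every stressed XY group, and the values overlapped. The control XX mice had 0.345, 0.462, 0.552, 0.561 and 0.969 CPM. The control XXSry mice ran from 0.395 to 0.861 CPM (median 0.586), against 0.484 to 0.806 CPM (median 0.613) in XY- and 0.548 to 1.88 CPM (median 0.652) in XY-Sry controls. The control groups overlapped almost wholly.

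In the edgeR fit with 8 group means and cohort, the log2 fold change of Drd2 for XX minus XY in the PFC was -0.65 ± 0.14 SE (95% interval -0.93 to -0.37, adjusted p = 0.00785). It was the 1 member called of 9 tested, where 1.12% of 19292 genes were called. The call rested on few libraries. Without the 2 XY-Sry libraries of 1.88 and 2.65 CPM the value was -0.36 (adjusted p = 0.127), and without the 4 libraries that stood apart it was -0.39 (adjusted p = 0.121). Without the 3 libraries of high Th it was -0.58 (adjusted p = 0.0257). Within cohorts 1, 2 and 3 it was -1.03, -0.11 and -0.75 (edgeR adjusted p = 0.00647, 1.00 and 0.709), and without the cohort term it was -0.54 (adjusted p = 0.0636). The fits within cohorts held single terms for stress, chromosomes and gonads in place of group means. In cohort 3 the only mice with XX chromosomes were 3 stressed XX and 1 stressed XXSry. At these levels of Drd2 the PFC value rests on 18 to 245 counts per library.

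**Figure D2:**
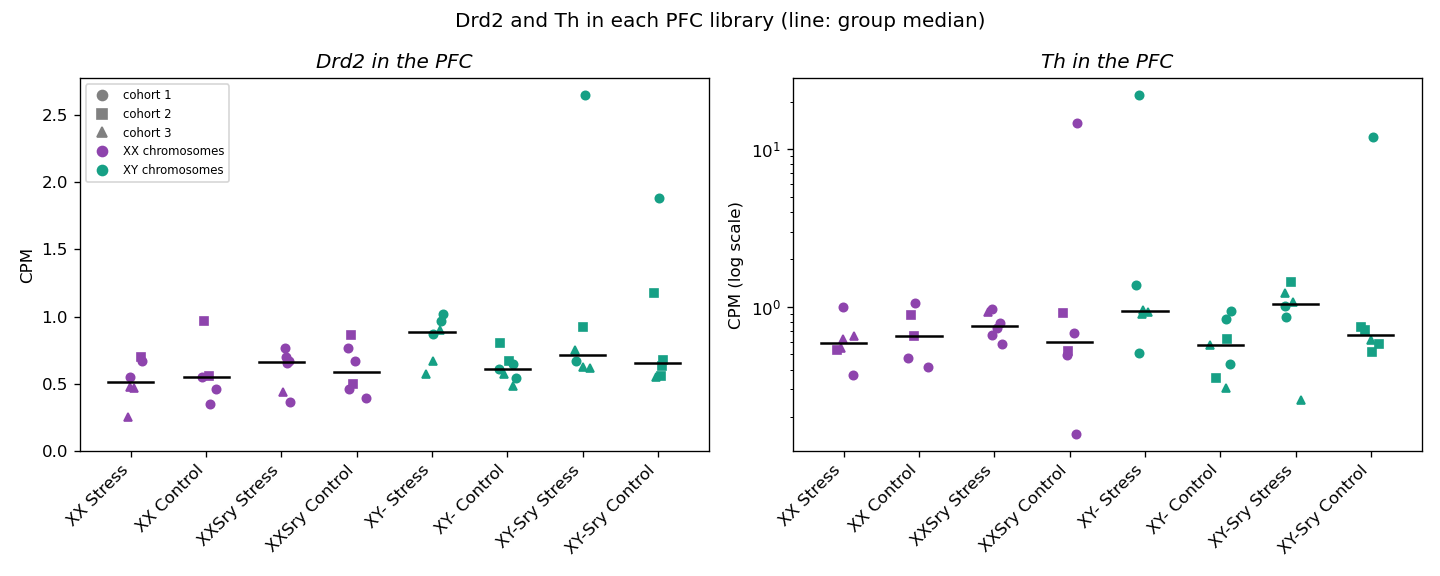
Drd2 (linear axis) and Th (log axis) in CPM in each of 48 PFC libraries by group, stress left of control, with the cohort as the marker shape, the chromosomes as colour and the group median as a line. The 2 XY-Sry libraries at 1.88 and 2.65 CPM of Drd2 and the 3 libraries above 10 CPM of Th are all of cohort 1.

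The 2 libraries of high Drd2 were also the 2 highest of the PFC in Adora2a, with 3.89 CPM in stressed mouse 30 and 3.28 CPM in control mouse 38 against at most 2.37 CPM elsewhere. They were the 2 highest in Penk, the enkephalin gene of Drd2 neurons, with 39.2 and 36.7 CPM against at most 34.7 CPM. Six3, a striatal transcription factor, reached 0.401 and 0.289 CPM, against a median of 0.00596 CPM and a highest value of 0.528 CPM in the other 46 libraries. In none of the 9 other striatal markers were they the 2 highest. Among the 48 PFC libraries, stressed mouse 30 and control mouse 38 ranked 3 and 5 from the top in Isl1, 9 and 5 in Ebf1, 11 and 1 in Meis2, 1 and 35 in Rarb, 6 and 21 in Bcl11b, 6 and 37 in Tac1, 13 and 30 in Foxp2, 13 and 21 in Sp9, and 39 and 18 in Pdyn. Drd1 did not stand apart there, with 10.8 and 8.97 CPM against a median of 9.19 CPM. Rgs9 was highest in mouse 30, with 18.999 CPM against at most 15.4 CPM in the other 46 libraries, and ranked 10 in mouse 38. Ppp1r1b ranked 1 and 11 in mice 30 and 38. Pde10a had 138.8 CPM in mouse 30, the highest of the PFC, and 103.3 CPM in mouse 38. Adcy5 had 153.2 and 160.9 CPM, the latter the highest of the PFC. Gnal had 223.6 and 234.2 CPM against a median of 223.8 CPM, and Drd3 had 2 and 7 counts. With the summed striatal markers as a covariate, the Drd2 difference was -0.49 (adjusted p = 0.0280). In the PFC that sum was mostly Meis2 and Bcl11b, with medians of 208 and 73.5 CPM in the other 46 libraries. Scarce markers such as Six3 hardly enter it, so this fit cannot show whether striatal tissue has a part. The part of striatal tissue in the result was not tested beyond these values.

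The other members except Th showed smaller differences between chromosomes in the PFC than Drd2. The mean of Ppp1r1b was 34.3 CPM in XX mice (SD 3.28) and 39.8 CPM in XY mice (SD 6.57), with a log2 fold change of -0.21 that did not pass (adjusted p = 0.0638). It passed in DESeq2 (adjusted p = 0.0361) and without the cohort term (adjusted p = 0.0306). Adora2a stood at -0.19 (adjusted p = 0.434) and Th at -0.78 (adjusted p = 0.492), and the Th value was -0.22 without the 3 libraries of high Th. Drd1, Adcy5, Gnal, Rgs9 and Pde10a lay between -0.07 and 0.04. Of the 9 tested, 8 were below 0, where 49.1% of all genes were.

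In the NAc the same contrast called 0 of 10 members in edgeR, DESeq2 and limma-voom, where edgeR called 0.584% of 19684 genes. At an unadjusted p of 0.05, 1 member passed, against 5.97% of all genes. That member was Adcy5, which averaged 739 ± 107 CPM in XX mice and 669 ± 128 CPM in XY mice (log2 fold change 0.15, adjusted p = 0.750). All 10 values were above 0, from 0.04 for Th to 0.16 for Rgs9, with a median of 0.12, where 49.9% of all genes were above 0. Drd2, lower in XX in the PFC, stood at 0.13 in the NAc (95% interval -0.04 to 0.31). The members vary together between NAc libraries, so the 10 directions are not separate observations.

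The difference between the regions in the XX minus XY contrast was tested itself. For Drd2 it was 0.75 ± 0.17 SE (edgeR adjusted p = 0.234), which did not pass, and 0.51 without the 4 animals whose PFC libraries stood apart (adjusted p = 0.676). The test called 0 of 10 members in edgeR and in limma-voom, where edgeR called 0.0151% of 19918 genes, and 5 members had an unadjusted p under 0.05, against 4.79% of genes.

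No member passed the test for stress in either region. In the PFC 0 of 9 tested members were called in edgeR, DESeq2 and limma-voom, where edgeR called 0% of 19292 genes, and 2 members had an unadjusted p under 0.05, against 5.73% of genes. These were Drd1 and Rgs9. Drd1 averaged 9.86 ± 1.599 CPM in stressed mice and 8.73 ± 1.31 CPM in controls (24 mice and SD in both groups), and its log2 fold change was 0.21 (95% interval 0.07 to 0.34, edgeR adjusted p = 0.625). Rgs9 averaged 12.2 ± 2.12 CPM in stressed mice and 10.97 ± 1.13 CPM in controls, with a log2 fold change of 0.19 (0.06 to 0.31, adjusted p = 0.612). Within cohorts 1, 2 and 3 the Drd1 value was 0.24, 0.07 and 0.28, and the Rgs9 value was 0.20, 0.13 and 0.13. The last 2 cohorts rest on few mice on 1 side. In cohort 2 the only stressed mice were 1 XX and 1 XY-Sry, and in cohort 3 the only controls were 2 XY- and 1 XY-Sry. Of the 10 striatal markers tested, 4 were above 0 and 6 below 0 in the same contrast (median -0.06). Those of smallest p were Foxp2, a transcription factor of striatal and deep cortical neurons, at 0.36, and Pdyn, the dynorphin gene of Drd1 neurons, at -0.11 (adjusted p = 0.664 and 0.757). Of the 7 cortical markers 5 were above 0, and those of smallest p were Tbr1, a factor of deep cortical layers, at 0.08, and Fezf2, another such factor, at 0.12 (adjusted p = 0.737 and 0.760). None of them was called. Without the 4 PFC libraries that stood apart the values were 0.24 for Drd1 and 0.18 for Rgs9. With the summed striatal markers as a covariate they were 0.19 for Drd1 and 0.17 for Rgs9 (adjusted p = 0.276 and 0.423). That sum was mostly Meis2 and Bcl11b in the PFC. The stress value of Th in the PFC was -0.06, and 0.50 without the 3 libraries of high Th (adjusted p = 1.00 and 0.611).

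In the NAc 0 of 10 members were called for stress in edgeR, DESeq2 and limma-voom, where edgeR called 0% of 19684 genes, and 0 members had an unadjusted p under 0.05, against 4.59% of genes. The values ran from -0.11 for Drd2 to 0.09 for Th. Drd2 averaged 72.8 ± 16.03 CPM in stressed mice and 80.9 ± 16.2 CPM in controls (SD, n = 24 each). The 95% interval of its log2 fold change ran from -0.29 to 0.08. The widest interval among the 10, that of Drd3, ran from -0.30 to 0.15. The difference between regions in the stress contrast called 0 of 10 members, where 0% of 19918 genes were called, with 1 member at an unadjusted p under 0.05 (Drd1, -0.23) against 4.97% of genes.

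**Figure D3:**
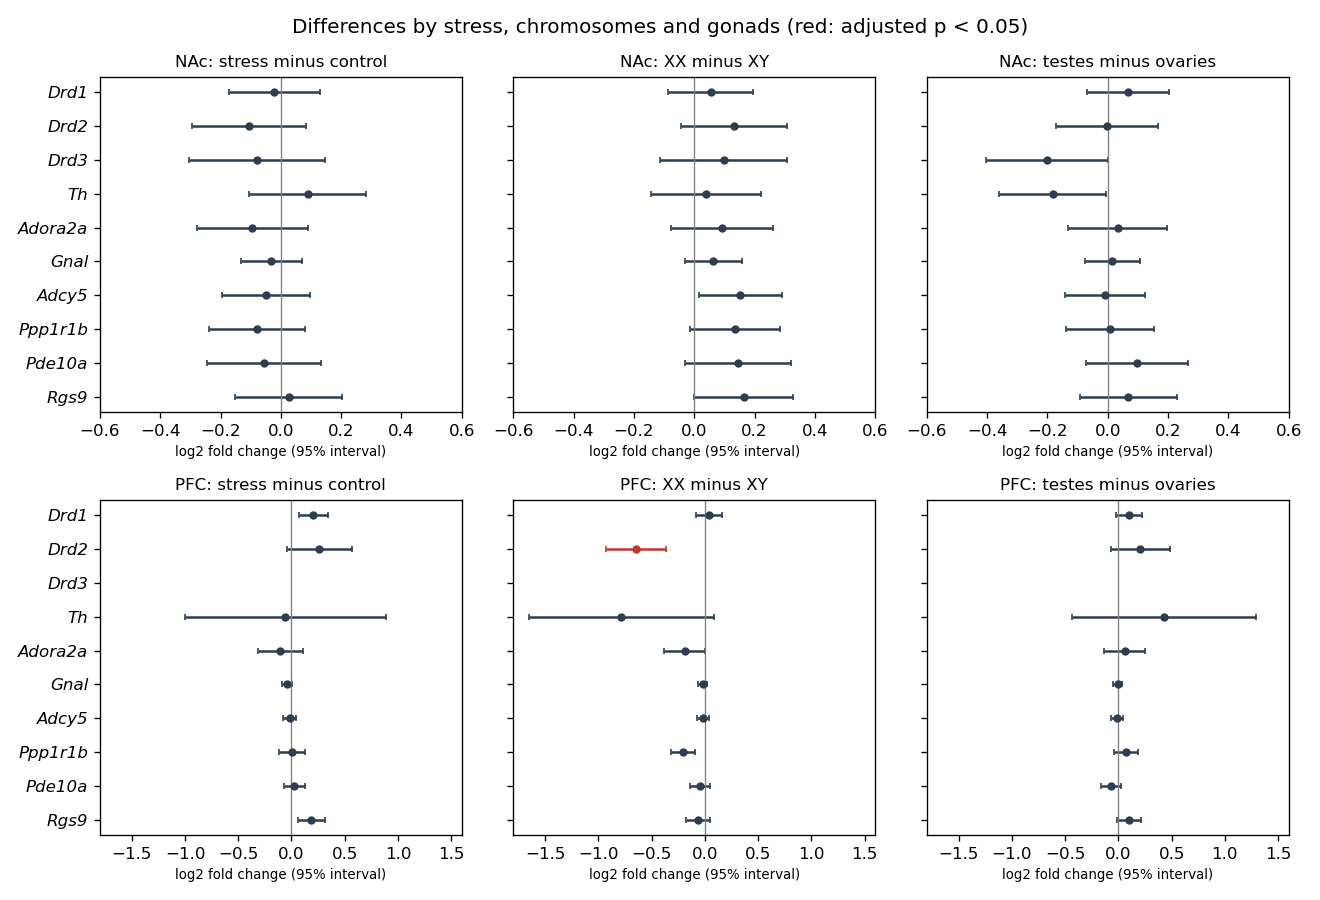
Log2 fold change with its 95% interval for each gene and contrast, NAc above and PFC below, on different x scales, with red for an adjusted p under 0.05. Only Drd2 for XX minus XY in the PFC is red, at -0.65, and Drd3 is not drawn for the PFC because it was not tested there.

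Gonads gave no called member. In the PFC 0 of 9 were called in edgeR, DESeq2 and limma-voom, where edgeR called 0.0467% of genes, and 0 had an unadjusted p under 0.05, against 6.74% of genes. In the NAc 0 of 10 were called in the same 3 tools, where edgeR called 0.0102% of genes, and 1 had an unadjusted p under 0.05, against 9.28% of genes. That was Th, at 6.24 ± 1.61 CPM in mice with testes and 7.01 ± 1.17 CPM in mice with ovaries (24 mice and SD in both groups), and its log2 fold change was -0.18 (adjusted p = 0.534). Drd3 was close to it, at 5.20 ± 1.30 CPM with testes and 6.00 ± 1.13 CPM with ovaries (log2 fold change -0.20, adjusted p = 0.538). Within cohorts 1, 2 and 3 the Th value was -0.42, 0.04 and -0.01, and the Drd3 value was -0.43, -0.13 and 0.17. The other 8 lay between -0.01 and 0.10 in the NAc. The difference between regions in the gonad contrast called 0 of 10 members, where 0% of genes were called. There 1 member had an unadjusted p under 0.05, against 5.25% of genes, and it was Drd3, whose PFC values rest on 21 counts.

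Stress within each genotype was examined with the same fit. In the NAc 0 of 10 members were called in any genotype in edgeR, DESeq2 or limma-voom, where edgeR called 0% of 19684 genes each time. At an unadjusted p of 0.05 the members passing were 0 within XX, 0 within XXSry, 4 within XY- and 4 within XY-Sry, against 3.84%, 2.49%, 4.45% and 6.2% of genes. Within XX mice 7 of 10 values were below 0 (median -0.10), where 49.7% of genes were below 0. Within XXSry mice 9 of 10 were below 0 (median -0.15), where 48.8% of genes were. The XY- and XY-Sry mice ran in opposite directions. Within XY- mice 9 of 10 values were below 0 (median -0.26), where 47.2% of genes were below 0, and within XY-Sry mice 10 of 10 were above 0 (median 0.32), where 51.3% of genes were above 0. The members vary together between NAc libraries, so these directions are not separate observations.

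Adora2a shows the pattern. It ran from 68.1 to 121.6 CPM (median 101.8) in stressed XY- mice, against 82.0 to 154.3 CPM (median 128.6) in XY- controls. In XY-Sry mice it ran from 77.1 to 182.6 CPM (median 129.4) under stress, against 81.2 to 139.2 CPM (median 101.3) in controls. The groups overlapped in both genotypes. Rgs9 ran from 149.9 to 350.6 CPM (median 224) in stressed XY- mice, against 243 to 343 CPM (median 304.5) in XY- controls, and from 192.1 to 452 CPM (median 312) in stressed XY-Sry mice, against 192.1 to 314 CPM (median 253.4) in XY-Sry controls. Its log2 fold changes were -0.29 within XY- (adjusted p = 1.00) and 0.41 within XY-Sry (adjusted p = 0.797), and neither passed.

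Members ran lower under stress in XY- mice and higher in XY-Sry mice. The cortical marker sum had a lower median under stress in both, but its highest library was a stressed one in both. It ran from 93.7 to 814 CPM in stressed XY- mice, against 97.2 to 588 CPM in XY- controls. In XY-Sry mice it reached 933 CPM under stress, against 744 CPM in controls. Its median was 272 CPM in stressed XY- mice, against 398 CPM in XY- controls, and 344 CPM in stressed XY-Sry mice, against 611 CPM in XY-Sry controls, whose lowest library held 497 CPM. All 7 of its markers were detected in every NAc library, and its part in the stress values was not tested within genotypes. Over all genotypes, with that sum as a covariate, the stress values of the 10 genes lay between -0.13 and 0.07 and 0 were called.

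The interactions in the NAc called 0 of 10 members for stress with chromosomes, stress with gonads and chromosomes with gonads, in edgeR, DESeq2 and limma-voom, where edgeR called 0% of genes each time. At an unadjusted p under 0.05 there were 0 members each time, against 3.02%, 2.94% and 2.84% of genes. The stress effect was higher with testes than with ovaries for 10 of 10 members (median 0.24), where 50.5% of genes were above 0. By the medians within genotypes this held on the XY background (0.32 in XY-Sry, -0.26 in XY- mice). It did not hold on the XX background (-0.15 in XXSry, -0.10 in XX mice). The stress effect was lower in XX than in XY mice for 10 of 10 (median -0.12), where 50.7% of genes were below 0. By the same medians this held with testes (-0.15 in XXSry, 0.32 in XY-Sry mice). It did not hold with ovaries (-0.10 in XX, -0.26 in XY- mice). Because the members vary together, neither count stands for 10 separate observations.

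In the PFC stress within genotypes called 0 of 9 members in any genotype in edgeR, DESeq2 or limma-voom, where edgeR called 0% of genes. At an unadjusted p of 0.05, 0 passed within XX, 2 within XXSry, 3 within XY- and 1 within XY-Sry, against 3.02%, 5.8%, 9.13% and 6.3% of genes. Drd1 was among them within XY- mice, at 7.82 to 11.4 CPM (median 10.5) in stressed mice, against 7.12 to 8.84 CPM (median 7.64) in controls, with a log2 fold change of 0.39 (edgeR adjusted p = 0.282). Th was among them within XY- (2.41) and XXSry (-1.87), and each value rested on 1 library. Without stressed XY- mouse 15 the value within XY- was 0.58, and without control XXSry mouse 51 the value within XXSry was 0.24. The PFC interactions called 0 of 9 members in edgeR, DESeq2 and limma-voom, where edgeR called 0% of genes. Unadjusted, 0, 2 and 1 members passed for stress with chromosomes, stress with gonads and chromosomes with gonads, against 3.14%, 6.72% and 4.35% of genes. For stress with chromosomes 9 of 9 values were below 0 (median -0.09), where 50.9% of genes were. For stress with gonads 6 of 9 were below 0 (median -0.04), where 50.3% of genes were. For chromosomes with gonads 7 of 9 were below 0 (median -0.04), where 49.1% of genes were. Since some members vary together, these directions are not separate observations.

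Between NAc libraries of the same group the 10 genes varied together. Over 48 libraries, with group and cohort means removed, 43 of 45 pairs were correlated after adjustment over the 81 pairs of both regions (permutation test, 100000 draws, two-sided), all 43 positively, with a median Pearson's r of 0.74. With Spearman's rho required as well, 42 remained called. Drd2, Adora2a, Adcy5 and Ppp1r1b formed the closest group, with r from 0.92 to 0.96. Adcy5 with Ppp1r1b had r = 0.96 and rho = 0.96 (permutation p = 1e-05, the smallest these draws can give, adjusted p = 2.3e-05), and r = 0.95 without the 2 libraries farthest from the median. Drd1, Gnal and Pde10a formed a second one, with r from 0.88 to 0.90. Drd1 with Drd2 had r = 0.67 and rho = 0.62 (permutation p = 1e-05, adjusted p = 2.3e-05 for r). The 2 pairs not called were Th with Drd1 (r = 0.29, rho = 0.11, permutation p = 0.0429 and 0.447, adjusted p = 0.0561 and 0.496) and Th with Pde10a (r = 0.30, rho = 0.18, permutation p = 0.0398 and 0.209, adjusted p = 0.0529 and 0.261).

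Within cohorts 1, 2 and 3 the median r of the 45 NAc pairs was 0.82, 0.57 and 0.76 (23, 12 and 13 libraries), and 45, 44 and 45 of them were above 0. The members were lower where cortical markers were higher. Against the summed cortical markers, Gnal had r = -0.59 and rho = -0.67 (permutation p = 3e-05 and 1e-05, adjusted over 18 tests to 0.000144 and 4.5e-05), and Drd3 had r = -0.64 and rho = -0.62 (p = 1e-05 and 2e-05, adjusted 9e-05 and 5.1e-05). Without the 2 libraries farthest from the median of the marker sum, r was -0.62 for Gnal and -0.63 for Drd3. Drd1, Drd2, Adora2a, Adcy5, Ppp1r1b, Rgs9 and Pde10a had r from -0.51 to -0.44, all called. Th had r = -0.24 and rho = -0.19 (permutation p = 0.0915 and 0.186, adjusted 0.103 and 0.210). In the PFC, where the 8 tested genes other than Th were set against the summed striatal markers, 6 were called and all 6 were positive. That sum was mostly Meis2 and Bcl11b in this region. Drd1 had r = 0.70 and rho = 0.67 (permutation p = 1e-05 for both, adjusted 9e-05 and 4.5e-05; r = 0.63 without the 2 libraries farthest from the median), and Ppp1r1b, Rgs9, Drd2, Adcy5 and Gnal had r from 0.46 to 0.58. Adora2a (r = 0.14) and Pde10a (r = 0.09) were not called (adjusted p = 0.373 and 0.532, permutation test). With the cortical marker sum removed, 42 of 45 NAc pairs were still called, with a median r of 0.63.

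**Figure D4:**
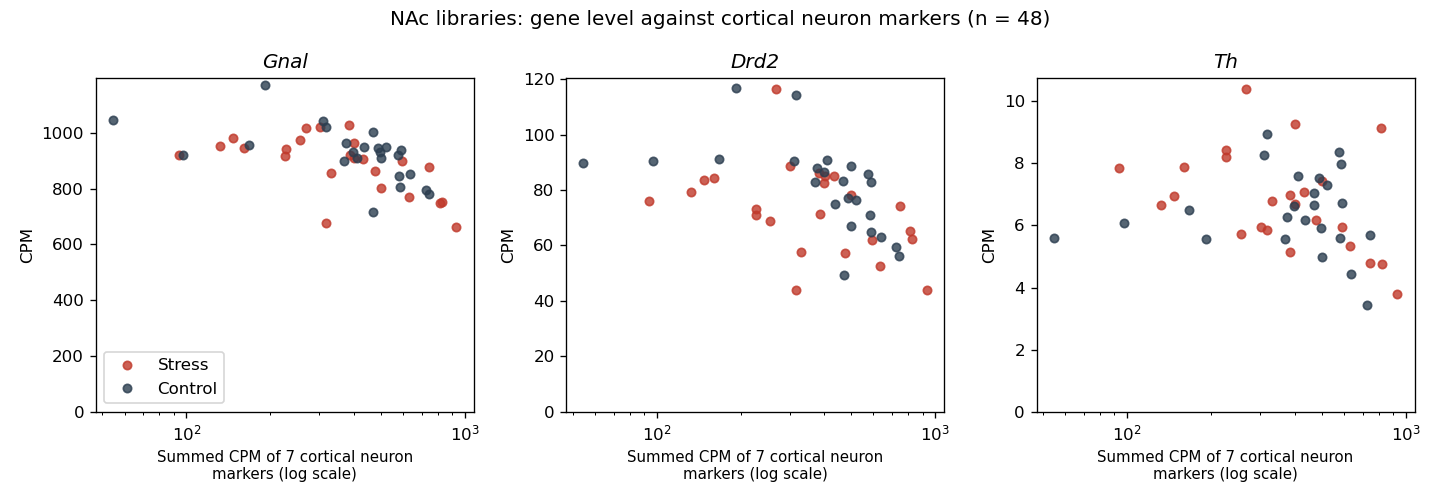
Level of Gnal, Drd2 and Th in CPM (linear axes) against the summed CPM of 7 cortical neuron markers (log axis) in the 48 NAc libraries, stress in red and control in dark blue. Gnal and Drd2 are lower where cortical markers are high, with r = -0.59 and -0.50 after group and cohort means, and Th had r = -0.24.

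In the PFC the same genes were less tied to each other. Of 36 pairs, 16 were called, all positive, with a median r of 0.25, and 11 remained called when rho was required as well. Pairs with Th were computed without the 3 libraries of high Th (n = 45), since those libraries form a cluster of their own. The highest was Drd1 with Rgs9 (r = 0.69, rho = 0.69, permutation p = 1e-05, adjusted p = 2.3e-05), r = 0.67 without the 2 libraries farthest from the median. Drd2 with Rgs9 had r = 0.56 and rho = 0.51 (permutation p = 7e-05 and 0.00026, adjusted p = 0.000142 and 0.000554), and r = 0.41 without the 2 farthest libraries. Without Th, the 28 PFC pairs had a median r of 0.35, 0.32 and -0.08 within cohorts 1, 2 and 3, and in cohort 3 single pairs ran from -0.42 to 0.79, with 12 of 28 above 0. The difference between the regions in these correlations was not tested.

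**Figure D5:**
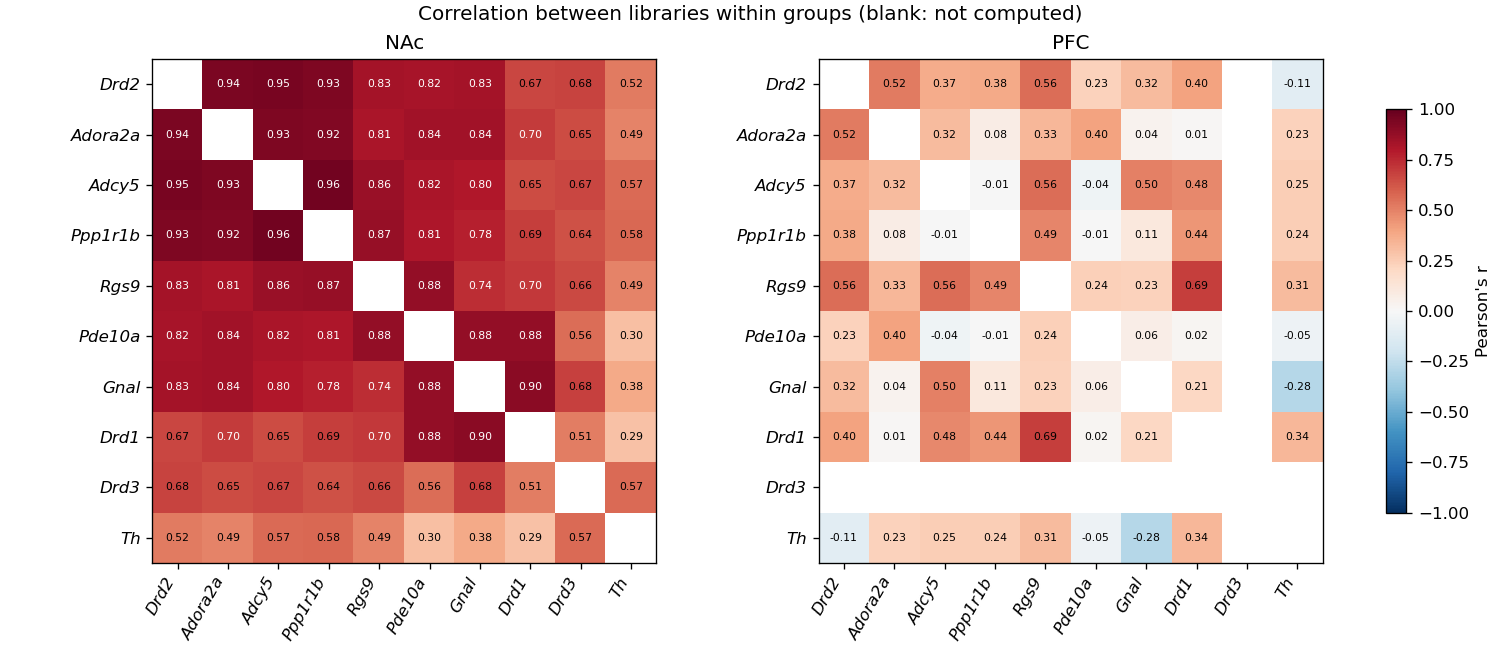
Pearson's r between members over libraries, NAc left and PFC right, after group and cohort means (n = 48, or 45 for Th in the PFC). NAc values run from 0.29 to 0.96 and PFC values from -0.28 to 0.69, and Drd3 is blank in the PFC because it was not tested there.

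The genes outside the list whose pattern was most like a member's over 48 NAc libraries were, by Pearson's r among 14714 genes, Gng7 for Drd2 (0.94), Pde1b for Adcy5 (0.96), Ppp1r1b (0.95) and Adora2a (0.95), Sv2c for Gnal (0.91), Tbc1d8 for Rgs9 (0.94), Tgfa for Pde10a (0.96), Tenm4 for Drd3 (0.84) and Zfp710 for Th (0.69). Next for Adora2a came Gng7 (0.94) and Bcr (0.90), for Drd3 Abat (0.82) and Zfp467 (0.81), and for Th Rubcn (0.68) and Npc2 (0.67). In the PFC, among 14374 genes, they were Glra2 for Drd1 (0.87), Gnao1 for Adcy5 (0.88), Oxtr for Gnal (0.81), Efnb3 for Rgs9 (0.72), Tbr1 for Ppp1r1b (0.70), Maml3 for Pde10a (0.68), Slc6a9 for Adora2a (0.64) and Creb3l1 for Drd2 (0.58). Atp1b2 (0.63) and Plekhg3 (0.56) came next for Adora2a. Cacng5 (0.88), Rab37 (0.84) and Pde1c (0.82) came first for Th in the PFC, and these values include the 3 libraries of high Th. None of these genes is shared between the regions for the same member.

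Other genes of the pathway differed between regions in mixed directions, in the same edgeR fit with the animal as a block. The values that follow are log2 fold changes of the called genes of smallest p in each list. Of 10 genes for dopamine synthesis, transport and breakdown, 6 were higher and 4 lower in the NAc. Ddc stood at 2.27, Qdpr, which regenerates the cofactor of Th, at 1.13, Slc18a2 at 4.71 and Slc6a3 at 3.14. Of 5 other dopamine and adenosine receptor genes, 1 was higher, Adora3 at 0.26, and 4 were lower, among them Drd4 at -2.49 and Adora2b at -0.51. Of 21 genes of cAMP and protein kinase A signalling, 3 were higher and 16 lower. Gng7, a G protein gamma subunit, stood at 3.23 and Ric8b, a chaperone of the Gnal product, at 1.30. Adcy2, another adenylyl cyclase, stood at -1.45 and Prkar1b, a regulatory subunit of protein kinase A, at -1.30.

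Of 6 other phosphodiesterases 5 were higher and 1 lower, with Pde1c at 3.58, Pde7b at 2.72, Pde1b at 2.44 and Pde8b at 0.84. Of 13 genes of protein phosphatase 1 and its regulators 6 were higher and 6 lower, with the inhibitor Ppp1r2 at 1.63 and the spine scaffold Ppp1r9b at -0.71. Of 17 regulators of G protein signalling and receptor desensitization 9 were higher and 8 lower, with the orphan receptor Gpr6 at 5.57 and the receptor kinase Grk2 at -1.17. The median over all 19918 genes was 0.02, and the list medians ran from -0.31 for cAMP and protein kinase A signalling to 1.64 for the phosphodiesterases.

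Within regions none of the 72 genes of these 6 lists was called for stress, chromosomes or gonads in edgeR. The nearest were Prkacb, a catalytic subunit of protein kinase A, at 0.07 (adjusted p = 0.0579) and Rgs4 at 0.13 (adjusted p = 0.0629), both for XX minus XY in the PFC. At an unadjusted p of 0.05 the chromosome contrast in the PFC held 7 of these genes above 0 and 6 below 0, where 11.6% of all genes passed. Among 9 marker lists the 1 gene called was Gja1, an astrocyte gap junction gene, at -0.10 for XX minus XY in the PFC (adjusted p = 0.0425). Slc6a2, Pde2a and Gpr52 were not analysed here.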

How the data were processed

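The authors deposited raw read counts per gene, 1 table for each region, for 48 mice and 96 libraries. The submitters' processing notes name HISAT2 2.2.0 and Trimmomatic 0.38, beside FastQC 0.11.9, DESeq2, edgeR and GRCm38, without roles. How reads were counted, with which strand setting and annotation, is not given in the sources used here. Gene IDs were matched to GENCODE M21 (19795 of 19918 found).

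The main test was the quasi-likelihood test of edgeR 4.0.16 (TMM, filterByExpr) on the counts, with 8 group means and cohort in each region (19292 PFC and 19684 NAc genes), and with the animal as a replicate block between regions, since the titles give each animal's number in both. P-values were adjusted by the Benjamini-Hochberg method over all genes, and a call meant an adjusted p under 0.05. Levels are CPM with TMM factors over all 96 libraries. Correlations used log2 CPM (prior count 2) after group and cohort means, with 100000 permutations. PFC pairs with Th left out 3 libraries, which departs from the planned test. Alternatives were RLE factors, DESeq2 1.42.0, limma-voom 3.58.1, other filters, no cohort term, single cohorts and leaving out each library, with gene filter and trended dispersion held from the full fit. Tests were checked on simulated counts with a fixed dispersion and no cohort or animal effect. That check does not cover genes as variable as Drd2 and Th in the PFC. No 2 libraries of a group agreed within sampling noise (chi-square per degree of freedom at least 14.3 in the NAc and 6.60 in the PFC). Genes named beside the members were, for each list, up to 4 called genes of smallest p, or up to 2 where none was called, and for each member the gene of highest Pearson's r outside the list (3 for Adora2a, Drd3 and Th). A gene that these rules name is not reported here. Slc17a7, Dbh, Penk, Six3, Sp9, Meis2 and Bcl11b were named after their values were seen. The members and lists were chosen with earlier results of these data known.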

Additional observations from a re-analysis of the deposited data

Results flagged for a closer look

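In 26 of 152 groups of 5 to 7 libraries, 1 library lay so far from its nearest neighbour, relative to the group's whole range, that it passed Dixon's critical value at the 95% level, which chance alone gives in about 1 in 20 groups. The genes vary together, so the 152 groups are not separate observations. The value of the library is given with the range of the others of its group. Drd1 had 11.4 CPM in the PFC of control XY-Sry mouse 47 (others 8.56 to 9.49), 187 CPM in the NAc of control XY- mouse 16 (others 244 to 271) and 172 CPM in the NAc of stressed XY-Sry mouse 7 (others 244 to 277). Drd2 had 2.65 CPM in the PFC of stressed XY-Sry mouse 30 (others 0.613 to 0.925), 114 CPM in the NAc of control XX mouse 2 (others 76.5 to 85.8), 49.2 CPM in the NAc of control XY- mouse 16 (others 82.9 to 91.3) and 88.6 CPM in the NAc of control XY-Sry mouse 47 (others 56.2 to 67.0). Th had 14.7 CPM in the PFC of control XXSry mouse 51 (others 0.157 to 0.913), 21.9 CPM in the PFC of stressed XY- mouse 15 (others 0.508 to 1.38), 11.9 CPM in the PFC of control XY-Sry mouse 38 (others 0.519 to 0.749), 7.58 CPM in the NAc of control XXSry mouse 34 (others 5.57 to 6.26) and 8.27 CPM in the NAc of control XY- mouse 6 (others 6.09 to 7.03). Adora2a had 1.88 CPM in the PFC of stressed XXSry mouse 12 (others 1.22 to 1.47), 3.89 CPM in the PFC of stressed XY-Sry mouse 30 (others 1.22 to 1.80), 3.28 CPM in the PFC of control XY-Sry mouse 38 (others 1.38 to 1.85) and 82.0 CPM in the NAc of control XY- mouse 16 (others 124 to 154). Adcy5 had 112 CPM in the PFC of stressed XXSry mouse 4 (others 137 to 152), 161 CPM in the PFC of control XY-Sry mouse 38 (others 137 to 145) and 534 CPM in the NAc of control XY- mouse 16 (others 712 to 806). Ppp1r1b had 52.6 CPM in the PFC of stressed XY- mouse 31 (others 29.3 to 37.8) and 529 CPM in the NAc of stressed XX mouse 25 (others 651 to 714). Gnal had 715 CPM in the NAc of control XY- mouse 16 (others 920.3 to 1043) and 662 CPM in the NAc of stressed XY-Sry mouse 7 (others 921 to 1021). Pde10a had 139 CPM in the PFC of stressed XY-Sry mouse 30 (others 84.0 to 103), 1517 CPM in the NAc of control XXSry mouse 3 (others 890.1 to 1093) and 594 CPM in the NAc of control XY- mouse 16 (others 895 to 1100.3). Control XY- mouse 16 was the lowest of its NAc group in every member but Th. It was flagged in Drd1, Drd2, Adora2a, Adcy5, Gnal and Pde10a, where the other 6 libraries of that group lay close together. In Drd3 (4.60 CPM), Rgs9 (243 CPM) and Ppp1r1b (571 CPM) it was the lowest without being flagged. What sets these libraries apart was not tested.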

How the results depend on the processing

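The count of 1 member called for XX minus XY in the PFC depended on the processing. It was 2 with DESeq2, 0 with the stricter filter, which removes Drd2, 0 within cohort 2, 0 within cohort 3, 0 without the 2 libraries of high Drd2 and 0 without the 4 libraries of high Th or Drd2, and from 1 to 2 when single libraries were left out. It was 2 without stressed XY-Sry mice 8 or 23, stressed XY- mouse 15 or control XX mouse 35, where Ppp1r1b was called as well. Drd2 was called in 48 of 48 such fits, with a log2 fold change from -0.73 to -0.50. Without the cohort term the 1 member called was Ppp1r1b. No called member changed sign under the alternatives run. Of 1981 values of single members under the alternatives other than leaving out a library, 1808 kept direction and call, 166 changed sign without a call, 5 lost a call and 2 gained one. Pairs called numbered 42 to 44 in the NAc and 15 to 17 in the PFC. Between regions 10 members were called with and without the replicate block, with Th at 2.78 without it. The libraries and animals left out for high Th or Drd2, the marker covariates and the removal of the cortical sum were chosen after seeing the data. Depth limits Drd3 in the PFC most, where 21 counts in 48 libraries allow no comparison within the region.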
